A study of Mus musculus with 8 samples.

Results

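The 49 mouse genes whose symbols start with Nduf were examined for regions bound by retinoid X receptors (RXR) in newborn hearts. They comprise the nuclear subunit genes of respiratory complex I, its Ndufaf assembly factors and a few genes that carry the name for historical reasons. They were taken by symbol from the 21887 nuclear protein-coding genes of RefSeq on mm10, and every RXR peak with its summit within 10 kb of either end of such a gene was counted, which gave 79 of 23961 peaks. The binding data came from ChIP-seq, in which fixed chromatin is immunoprecipitated and sequenced, on total hearts of mice at postnatal day 0 (P0). The edKO hearts lacked Rxra and Rxrb in cardiomyocytes (RXRab-/-), and the WT hearts were wild type. Each genotype was represented by 2 hearts, numbered 3 and 4 and described as individual biological replicates, with an RXR immunoprecipitate and an input taken from every heart. Which Cre driver made the deletion is not given by the sources used here. Because the tissue was the total heart and the deletion was limited to cardiomyocytes, other heart cells kept both genes in edKO hearts, and fewer cells with bound RXR and less binding per cell cannot be told apart.

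Complex I is the entry point of NADH into the respiratory chain. Its matrix arm oxidises NADH and passes the electrons along iron-sulfur clusters to ubiquinone, and its membrane arm pumps protons. The catalytic core subunits of the membrane arm are encoded by mitochondrial DNA and are not among the Nduf genes, whereas the core of the matrix arm and all accessory subunits are nuclear. RXR proteins bind DNA as partners of other nuclear receptors, several of which act on fuel use in the heart, and the AGGTCA half-site is the textbook recognition element of this receptor class. Around birth the heart turns from glucose towards fatty acids, and its respiratory capacity grows.

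Neither edKO heart had an RXR peak at an Nduf gene, whereas both WT hearts had several. Few genes of any kind had a peak in edKO replicates 3 and 4 (0.0548% and 0.58% of all genes), so this absence is near the background. Regions present in both WT hearts lay near 13 of the 49 genes (26.5%), against 15.2% of all genes. The strongest was at the start of Ndufs4, and a further 12 genes had such a region. These were Ndufa1, Ndufa2, Ndufa3, Ndufa4, Ndufa5, Ndufa6, Ndufb1, Ndufb7, Ndufc2, Ndufs6, Ndufs7 and Ndufs8. In most of them the summit sat close to the annotated transcript start. The upstream sequence is therefore shown first for 6 genes. At these the strongest region present in both WT hearts had its WT replicate 3 summit inside the promoter entry of the reference table.

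The promoters of Ndufs7 (chr10:80249199-80249478, plus strand), Ndufs8 (chr19:3912745-3913024, minus strand), Ndufa5 (chr6:24527497-24527776, minus strand), Ndufs6 (chr13:73328453-73328732, minus strand), Ndufb7 (chr8:83566508-83566787, plus strand) and Ndufb1 (chr12:101975709-101975988, minus strand) are from RefSeq, build GRCm38.p6. Each runs 5′ to 3′ on the strand of the gene over 280 bases, of which 250 lie before the transcript start and 30 are transcribed. They are shown because they hold the DNA under the RXR summit of WT replicate 3, and capitals mark the half-site AGGTCA on either strand.
Ndufs7: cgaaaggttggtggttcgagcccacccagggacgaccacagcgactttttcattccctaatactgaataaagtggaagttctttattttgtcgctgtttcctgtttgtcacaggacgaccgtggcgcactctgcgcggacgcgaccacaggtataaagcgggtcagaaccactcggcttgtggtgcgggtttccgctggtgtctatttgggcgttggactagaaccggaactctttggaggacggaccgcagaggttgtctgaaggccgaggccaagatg
Ndufs8: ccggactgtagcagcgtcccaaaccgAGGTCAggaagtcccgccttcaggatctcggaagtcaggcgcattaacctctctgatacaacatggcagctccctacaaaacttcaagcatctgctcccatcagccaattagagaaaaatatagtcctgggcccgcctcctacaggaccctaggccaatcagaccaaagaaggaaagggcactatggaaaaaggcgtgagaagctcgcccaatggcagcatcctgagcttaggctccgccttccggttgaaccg
Ndufa5: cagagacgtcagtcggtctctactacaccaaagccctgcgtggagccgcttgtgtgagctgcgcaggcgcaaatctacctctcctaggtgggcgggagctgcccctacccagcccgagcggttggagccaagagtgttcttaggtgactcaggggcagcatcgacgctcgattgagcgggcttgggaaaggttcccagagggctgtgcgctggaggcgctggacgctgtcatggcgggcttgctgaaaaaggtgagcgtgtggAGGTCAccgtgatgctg
Ndufs6: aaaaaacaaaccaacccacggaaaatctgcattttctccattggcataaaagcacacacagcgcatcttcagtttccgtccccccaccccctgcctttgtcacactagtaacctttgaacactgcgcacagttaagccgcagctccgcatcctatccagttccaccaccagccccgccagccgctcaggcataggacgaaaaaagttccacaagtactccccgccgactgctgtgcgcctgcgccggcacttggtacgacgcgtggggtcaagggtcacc
Ndufb7: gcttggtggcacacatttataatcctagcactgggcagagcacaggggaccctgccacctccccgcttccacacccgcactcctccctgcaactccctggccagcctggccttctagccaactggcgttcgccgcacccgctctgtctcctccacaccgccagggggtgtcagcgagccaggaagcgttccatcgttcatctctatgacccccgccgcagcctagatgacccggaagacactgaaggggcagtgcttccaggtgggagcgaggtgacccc
Ndufb1: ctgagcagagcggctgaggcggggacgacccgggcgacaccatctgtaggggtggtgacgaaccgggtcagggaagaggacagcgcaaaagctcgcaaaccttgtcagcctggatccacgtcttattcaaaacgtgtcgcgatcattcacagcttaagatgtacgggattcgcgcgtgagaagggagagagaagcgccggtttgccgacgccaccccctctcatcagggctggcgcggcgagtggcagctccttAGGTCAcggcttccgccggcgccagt

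Positions in these promoters count the first transcribed base as 1 and the base before it as -1. The RXR summit lay at -34 in both WT hearts at Ndufs7. At Ndufs8 it lay at -207 in WT replicate 3 and -205 in WT replicate 4, and the half-site covers -224 to -219. At Ndufb1 the half-site covers 5 to 10, and the summits lay at 27 in WT replicate 3 and at 42, past the printed sequence, in WT replicate 4. Ndufs8 and Ndufb1 thus had a half-site close beside the summit of WT replicate 3.

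Ndufa5 has a pair of annotated starts, and the promoter of the inner one is printed, with the half-site at 14 to 19 and the summits at -96 in WT replicate 3 and -107 in WT replicate 4. At Ndufs6 the summits lay at -103 in WT replicate 3 and at 60, past the printed sequence, in WT replicate 4. Those at Ndufb7 lay at -1 in WT replicate 3 and at -14 in WT replicate 4. The exact half-site AGGTCA was not found in the printed promoters of Ndufs7, Ndufs6 and Ndufb7. Variants with another base were not searched, and GGGTCA is present on either strand of each of these promoters. Absence of AGGTCA therefore does not mean that a related element is absent.

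Half-sites were then counted over all promoter entries, in windows of 300 bases. AGGTCA was found on either strand in 9 of the 44 promoters of 42 Nduf genes (20.5%), against 3129 of 21263 promoters of all genes (14.7%). Beside those named above, the windows of Ndufaf4, Ndufs5, Ndufb2, Ndufb4, Ndufb10 and Ndufa11 held it. A direct repeat of the half-site, the arrangement that RXR heterodimers are known to bind, was searched on both strands as AGGTCANAGGTCA, AGGTCANNAGGTCA, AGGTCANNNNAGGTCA and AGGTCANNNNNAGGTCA. It was found in 0 of 44 Nduf promoters at each spacing, also with 1 mismatch allowed, whereas 0.480%, 0.230%, 0.188% and 0.183% of all promoters held the 4 spacings with 1 mismatch. The extended half-site TNAAGGTCA, which contains AGGTCA and is bound by estrogen-related receptors, was found at Ndufb4 alone (2.27% of Nduf promoters, against 1.03% of all). Ndufb4 had no RXR peak. The motif shares are given without intervals, and no difference between them was tested. The GC content of the Nduf windows had a median of 59.3%, against 56.3% for all windows.

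The number of peaks at Nduf genes was 0 in edKO replicate 3 and 0 in edKO replicate 4, against 64 in WT replicate 3 and 15 in WT replicate 4. These counts did not overlap between the genotypes, and the WT hearts differed from each other more than the lower of them differed from the edKO hearts. The mean was 0 ± 0 peaks in edKO hearts and 39.5 ± 34.6 in WT hearts (SD, n = 2 each), a difference of -39.5. The two-sided exact permutation test over hearts gave p = 0.333, which is the smallest p that 2 hearts against 2 allow. The whole lists held 8 peaks in edKO replicate 3, 127 in edKO replicate 4, 19129 in WT replicate 3 and 4697 in WT replicate 4. Nduf peaks were 0.335% of the list in WT replicate 3 and 0.319% in WT replicate 4. A count of 0 (an upper limit of 3 peaks) allows a share of up to 37.5% of the list of edKO replicate 3 and 2.36% of that of edKO replicate 4. Both limits lie above the WT shares, so the edKO lists were too short to show whether Nduf genes took a different share of what was left.

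The fragments at each summit were recovered from the peak statistics. The peak with the fewest fragments at its summit had 24 in edKO replicate 3, 17 in edKO replicate 4, 11 in WT replicate 3 and 12 in WT replicate 4. Local background at its lowest was 3.11 and 2.96 fragments in the edKO hearts, against 2.48 and 2.32 in the WT hearts. Of the Nduf peaks, 58 of 64 in WT replicate 3 and 14 of 15 in WT replicate 4 had a −log10 p, the authors' measure of significance against the local background, of at least 6.03, which was the lowest value listed in edKO replicate 4. Fewer, 38 and 11 in the same WT hearts, reached 9.53, the lowest value among the 8 peaks of edKO replicate 3. The nearest peaks of edKO replicate 4 to any Nduf gene lay 35.7 kb and 45.2 kb from Ndufa7, a matrix arm subunit gene. Their fold enrichment was 5.05 and 8.37. This is the authors' ratio of fragments at the summit to the local background, with 1 added to each. Their nearest gene was Angptl4, which encodes an inhibitor of lipoprotein lipase.

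**Figure D1:**
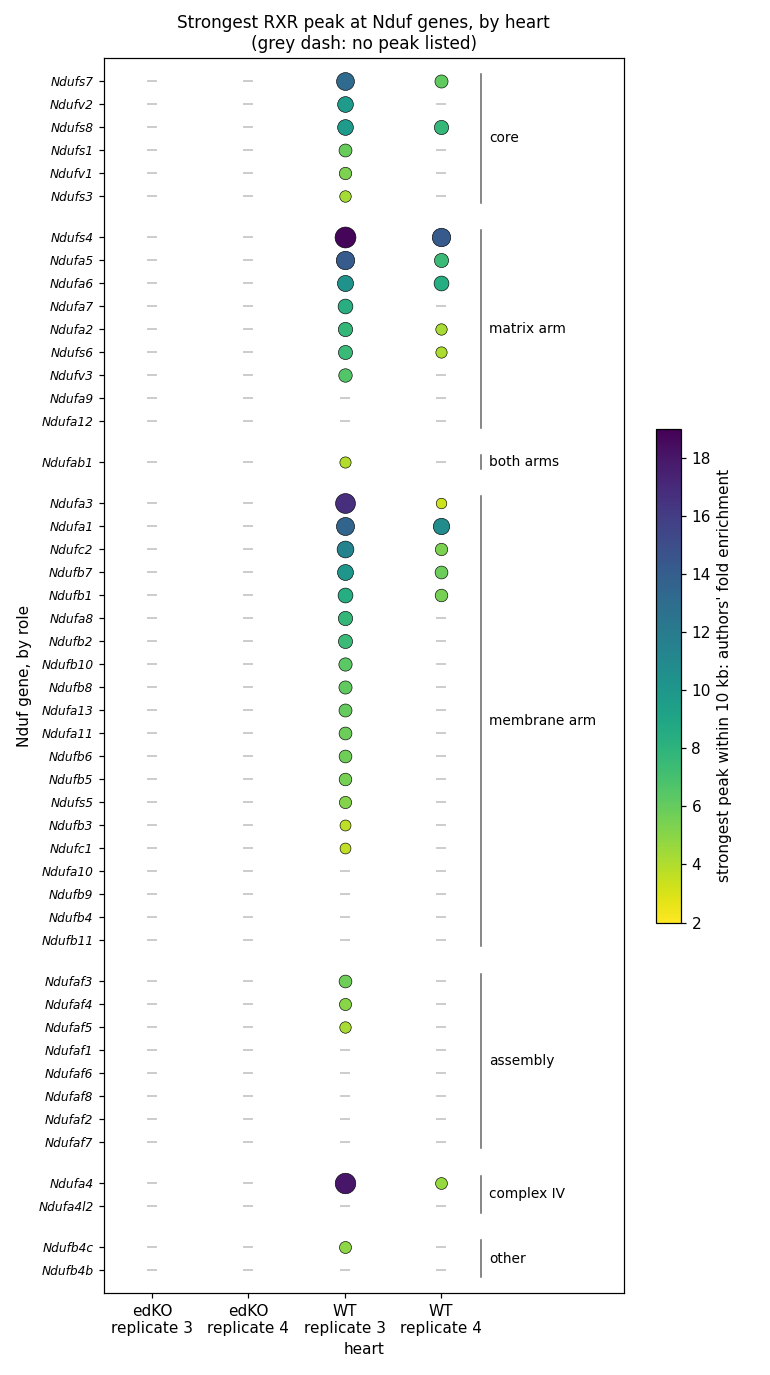
Strongest RXR peak within 10 kb of Nduf genes, in columns for the edKO and WT hearts and in rows for the genes grouped by role. Larger and darker points mark a higher fold enrichment (ratio, the authors' value) and a dash marks no peak. The edKO columns are empty. Of all 49 genes, of which 1 is not drawn, WT replicate 3 has a peak at 36 and WT replicate 4 at 13.

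Counted by gene, 0 of 49 Nduf genes had a peak in edKO replicate 3 and 0 in edKO replicate 4, against 36 in WT replicate 3 (73.5%, 95% Clopper-Pearson interval 58.9 to 85.1%) and 13 in WT replicate 4 (26.5%, 14.9 to 41.1%). Over all protein-coding genes the shares were 0.0548% in edKO replicate 3, 0.58% in edKO replicate 4, 42.4% in WT replicate 3 and 15.8% in WT replicate 4. With so few genes called in the edKO hearts, a count of 0 of 49 is near the background there. A region shared by the WT hearts, made of 1 peak from each that overlap by at least 1 bp, lay within 10 kb of 13 Nduf genes (26.5%, 14.9 to 41.1%), against 15.2% of all genes. The interval of the Nduf share reaches down to the background for WT replicate 4 and for shared regions, and lies above it for WT replicate 3. The same count was 13 of 48 for the genes of complexes II to V (27.1%, 15.3 to 41.8%), and 34 of these 48 genes (70.8%, 55.9 to 83.0%) had a peak in WT replicate 3. The shares of the complex I list and of the complexes II to V list thus differed by less than their intervals. Genes were not matched on expression or on the number of neighbours, and intervals cover counting error only. In edKO replicate 4, 1 of the 48 genes had a peak, Atp5g2, which encodes a membrane subunit of ATP synthase.

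**Figure D2:**
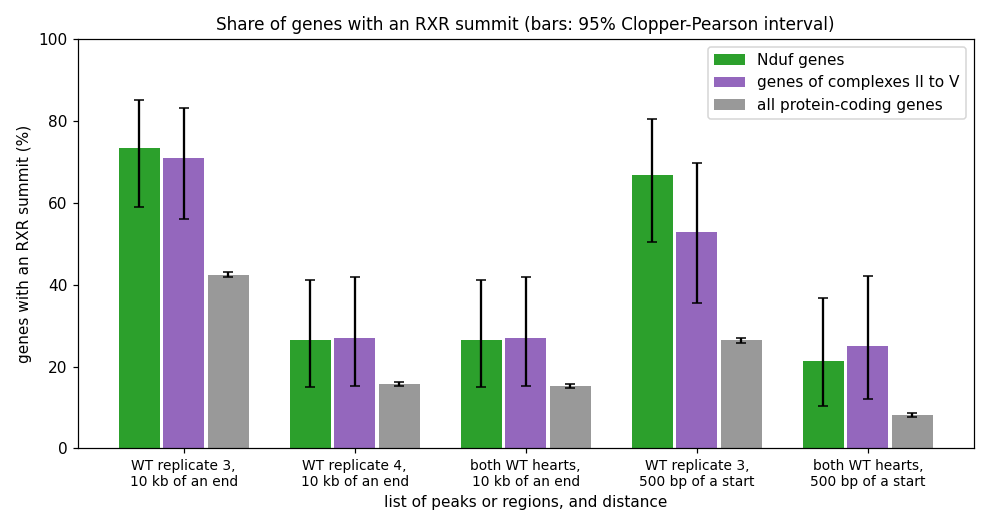
Percent of Nduf genes (green), genes of complexes II to V (purple) and all protein-coding genes (grey) with an RXR summit, by peak list and distance. Bars start at 0 and lines are 95% Clopper-Pearson intervals. The Nduf share in WT replicate 3 is 73.5% within 10 kb of a gene end and 66.7% within 500 bp of a transcript start, against 42.4% and 26.4% of all genes.

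The catalytic core subunits carry the flavin and the iron-sulfur clusters. All 7 core genes had a peak in WT replicate 3 (interval 59.0 to 100%, against 42.4% of all genes), and 2 of them, Ndufs7 and Ndufs8, in WT replicate 4 as well. Both had a shared region (interval 3.67 to 71.0%, which includes the 15.2% of all genes). Ndufs7, whose product holds the last iron-sulfur cluster before ubiquinone, had its region at chr10:80249240-80249683. Its fold enrichment was 13.1 in WT replicate 3 and 6.13 in WT replicate 4, with 63 and 20 fragments. The annotated gene span begins further upstream, so that this summit lies 310 bp inside the gene and 34 bp before the transcript start. A second Ndufs7 region, at chr10:80264754-80265351, lay 8298 bp outside the gene with folds of 5.32 and 4.84 in WT replicates 3 and 4, and Dazap1 was nearer to it at 3730 bp.

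Ndufs8, which also binds iron-sulfur clusters, was the core gene whose shared region was higher in WT replicate 4. The region at chr19:3912268-3913171 had a fold of 6.42 for WT replicate 3 and 7.69 for WT replicate 4, with 41 and 26 fragments. WT replicate 4 had a second peak under the same wide peak of WT replicate 3, with a fold of 4.84 and its summit 109 bp inside the gene. Aldh3b1, an aldehyde dehydrogenase gene, lay 510 bp from the region's summit. In WT replicate 3 a stronger peak, with a fold of 9.76, lay 3455 bp beyond the other end of Ndufs8 and was not shared.

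Further core genes had peaks in WT replicate 3 alone. The strongest fold was 9.76 at Ndufv2, 5.96 at Ndufs1, 5.32 at Ndufv1 and 4.31 at Ndufs3. Ndufv1 binds NADH and the flavin, and Ndufs1 carries iron-sulfur clusters next to it.

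The matrix arm accessory subunits surround this core. Of their 9 genes, 5 had a shared region (interval 21.2 to 86.3%, against 15.2% of all genes) and 7 a peak in WT replicate 3 (39.99 to 97.2%, which includes the 42.4% of all genes). Groups of so few genes give wide intervals, and no difference between roles was tested. Ndufs4, whose product stabilises the NADH-oxidising module and whose loss causes Leigh syndrome in people, led all Nduf genes. The region at chr13:114387475-114388223 had a fold of 18.7 for WT replicate 3 and 14.3 for WT replicate 4, with 87 and 58 fragments. Its summits lay 172 bp and 190 bp into the transcript, and no other protein-coding gene had an end within 10 kb. By fold enrichment it ranked 575 among the 19129 peaks of WT replicate 3, and 236 among the 4697 of the other WT heart, so that it was among the strong peaks of both hearts, if not the strongest.

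Ndufa5 had its region at chr6:24527373-24527828, with a fold of 14.2 for WT replicate 3 and 7.50 for WT replicate 4 and with 92 and 30 fragments. The summits lay 68 bp and 57 bp into the transcript from the outer start. Ndufa6 encodes a subunit that anchors the mitochondrial acyl carrier protein to the matrix arm. Its shared region lay 8241 bp outside the gene at chr15:82362304-82362688, with a fold of 10.3 for WT replicate 3 and 8.46 for WT replicate 4 and with 35 and 28 fragments. Cyp2d22, a cytochrome P450 gene, was nearer to it at 7995 bp. WT replicate 3 had 5 peaks near Ndufa6, the most at any Nduf gene.

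Ndufs6, which encodes a zinc-binding subunit, had folds of 7.47 and 4.07 in WT replicates 3 and 4 at chr13:73328061-73328783, with 41 and 20 fragments. Mrpl36, a mitochondrial ribosomal protein gene, was nearer, at 82 bp. The weakest shared region was at Ndufa2, at chr18:36744279-36744706 and 38 bp inside the gene, with a fold of 3.02 for WT replicate 3 and 4.20 for WT replicate 4 and with 16 and 25 fragments. Ik, a splicing factor gene, lay 107 bp from its summit. In WT replicate 3 alone there were peaks near Ndufa7, where the strongest was 8.36, and Ndufv3, where it was 6.60. A peak with a fold of 7.75 lay farther from Ndufa2 in the same heart. Ndufa9 and Ndufa12 had no peak in any heart.

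The membrane arm accessory subunits form the largest role group, with 20 genes, of which 5 had a shared region (interval 8.66 to 49.1%, which includes the 15.2% of all genes) and 16 a peak in WT replicate 3 (56.3 to 94.3%, against 42.4%). Ndufa1, on the X chromosome, encodes a small subunit spanning the membrane. Its region at chrX:37190988-37191344 had a fold of 13.5 for WT replicate 3 and 10.8 for WT replicate 4, with 46 and 36 fragments and summits 90 bp and 87 bp into the transcript. It was close in height between the WT hearts, but the opposite gene Rnf113a1 was slightly nearer, at 74 bp. Ndufb7, whose product faces the intermembrane space, had its region at chr8:83566545-83566942 with folds of 10.1 and 5.81 in WT replicates 3 and 4 and with 37 and 23 fragments. Ndufb1, at chr12:101975454-101976237, had folds of 8.48 and 5.57 with 31 and 22 fragments. At Ndufb1 the summit was 26 bp from the gene's end and 47 bp from Cpsf2, which encodes an mRNA cleavage factor.

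The shared regions of Ndufa3 and Ndufc2 lay away from these genes. That of Ndufa3, at chr7:3609030-3609481, lay 8107 bp outside the gene and 573 bp from Oscar, an immune receptor gene. It had the widest ratio between the WT hearts of the 14 regions, with a fold of 16.7 for WT replicate 3 and 3.29 for WT replicate 4 and with 62 and 16 fragments. That of Ndufc2, at chr7:97414478-97414880, lay 6829 bp outside the gene with folds of 11.4 and 5.33 and with 44 and 21 fragments. It was nearer, at 1696 bp, to Thrsp, a thyroid hormone responsive gene of lipid synthesis. By the nearest gene, neither region would be given to a complex I gene.

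A further 11 membrane arm genes had peaks in WT replicate 3 alone, and their strongest folds were 7.75 at Ndufa8, 7.46 at Ndufb2, 6.36 at Ndufb10, 6.17 at Ndufb8, 6.03 at Ndufa13, 5.83 at Ndufa11, 5.75 at Ndufb6, 5.57 at Ndufb5, 5.17 at Ndufs5, 3.70 at Ndufb3 and 3.62 at Ndufc1. Ndufa10, Ndufb4, Ndufb9 and Ndufb11 had no peak in any heart. Ndufab1, the acyl carrier protein found in both arms, had a peak with a fold of 3.98 in WT replicate 3 alone.

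Assembly factors help to build complex I and leave it when it is complete. None of the 8 Ndufaf genes had a shared region, and 3 had a peak in WT replicate 3 (interval 8.52 to 75.5%, which includes the 42.4% of all genes). Their folds were 5.74 at Ndufaf3, 5.04 at Ndufaf4 and 4.24 at Ndufaf5. Ndufaf3 and Ndufaf4 act together in early assembly, and Ndufaf5 modifies the Ndufs7 protein. Ndufaf1, Ndufaf2, Ndufaf6, Ndufaf7 and Ndufaf8 had no peak. A share of 0 of 8 has an interval of up to 36.9%, which includes the share of 5 of 20 seen for the membrane arm genes, so a difference between these groups was not detectable with this number of genes. Among 14 assembly genes with other names, Tmem186 and Foxred1 had a shared region, with a fold of 11.5 and 8.75 in WT replicates 3 and 4 at Tmem186 and of 6.03 and 6.71 at Foxred1. The Tmem186 summit lay 281 bp from a gene end and that of Foxred1 4099 bp. Of these 14 genes, 7 had a peak in WT replicate 3. The intervals, 1.78 to 42.8% for shared regions and 23.0 to 77.0% for WT replicate 3, both include the shares of all genes.

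Ndufa4 bears a complex I name but its product is known as a subunit of cytochrome c oxidase (complex IV). Its region at chr6:11907328-11908097 had a fold of 18.03 for WT replicate 3 and 4.72 for WT replicate 4, with 67 and 38 fragments over a local background of 2.77 and 7.0. The fold thus differed 3.82 times between the WT hearts and the fragments less so. The summits lay 264 bp and 288 bp before the start, and Phf14, a chromatin reader gene on the other strand, was nearer at 11 bp. Ndufa4l2, its hypoxia-induced relative, had no peak. Ndufb4c had a peak with a fold of 4.88 in WT replicate 3, and Ndufb4b had none. With these, 13 of the 49 genes had no peak in any heart and 23 had peaks in WT replicate 3 alone.

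**Figure D3:**
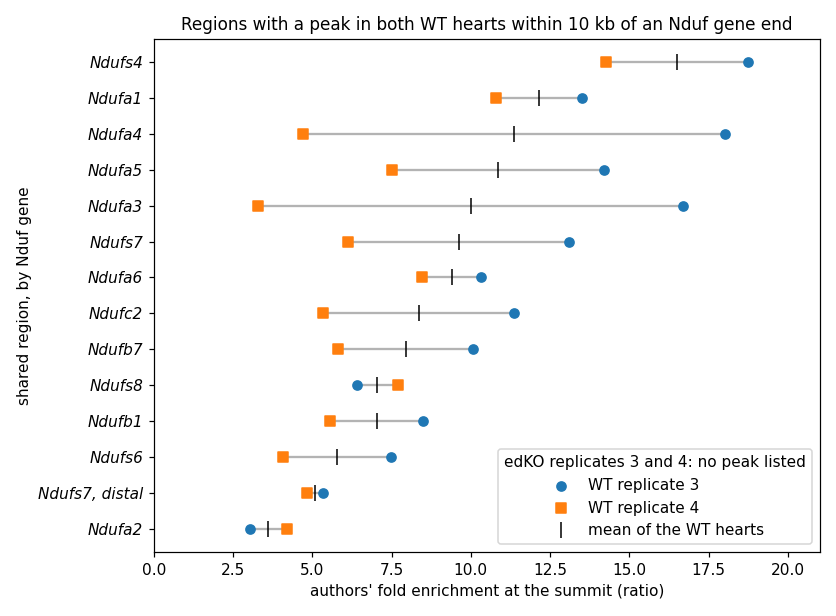
Fold enrichment at the summit (ratio, the authors' value) of the 14 regions shared by the WT hearts, ordered by the mean of the WT hearts. Circles are WT replicate 3, squares WT replicate 4 and ticks their mean. The edKO hearts have no peak at these regions. Circles lie right of squares at 12 of 14 regions, and the Ndufs4 region leads with 18.7 and 14.3.

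Over the 14 shared regions, the mean fold of the WT hearts had a median of 8.87, against 7.81 for all 4342 shared regions. The Nduf medians of the WT hearts had an SD of 3.65. This SD is the spread between the hearts and does not measure the spread of the difference from all regions, which was not tested. The median was 10.9 in WT replicate 3, against 9.47 for all, and 5.69 in WT replicate 4, against 6.13 for all. The Nduf regions therefore stood above all shared regions in WT replicate 3 and below them in WT replicate 4. The fold was higher in WT replicate 3 at 12 of the 14 regions, and at 82.7% of all shared regions. The median ratio of WT replicate 3 to WT replicate 4 was 1.63 at Nduf regions and 1.49 over all. Each of the 15 Nduf peaks in WT replicate 4 had an overlapping peak in WT replicate 3, as did 94.4% of the whole list of WT replicate 4, so the Nduf count is close to that of any of its peaks. The 50 Nduf peaks that WT replicate 3 did not share had a median fold of 4.93, against 10.9 for the 14 that it did. In that heart the median was 9.47 over all shared regions and 5.46 over the whole list. A higher fold of shared peaks is thus not particular to Nduf genes.

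The rule for members used the distance to a gene end only up to 10 kb, so the position within that distance could be described. The summit lay within 1 kb of the Nduf gene end at 10 of 14 shared regions (71.4%, 41.9 to 91.6%). Of all shared regions within 10 kb of any gene end, 61.7% lay within 1 kb of one. This background counts the end of any gene, by which the Ndufa3 region, 573 bp from Oscar, would be added to the Nduf count. The interval of the Nduf share includes the background. The other 4 regions lay between 6829 and 8298 bp outside the gene. At 7 of the 14 regions another protein-coding gene had the nearer end, so these regions cannot be given to the Nduf gene by distance.

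Transcript starts were known for 42 of the 49 genes. A summit lay within 500 bp of a start at 0 of 42 Nduf genes in either edKO heart and at 28 in WT replicate 3 (66.7%, 50.5 to 80.4%). Of 17492 protein-coding genes with a known start, 26.4% had such a summit in WT replicate 3. For the genes of complexes II to V it was 19 of 36 (52.8%, 35.5 to 69.6%), an interval that overlaps that of the Nduf genes. In WT replicate 4 the count was 9 of 42 (21.4%, 10.3 to 36.8%), against 8.68% of all genes. The count for shared summits was also 9, against 8.19% of all genes, and 9 of 36 genes of complexes II to V (interval 12.1 to 42.2%) had one. The Nduf share was thus above the share of all genes in both WT hearts and within the interval of the other respiratory chain genes.

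In WT replicate 3 the Nduf summits near a start ran from 264 bp before it to 448 bp after it, with 12 before and 18 at or after the start. In 13 of these 30 peaks the summit was within 100 bp of the start, and in WT replicate 4 in 6 of 10. The median fold of the start peaks was 5.79 in WT replicate 3, against 5.45 for its 4629 start peaks of all genes (quartiles 4.31 and 8.23 for Nduf, 4.51 and 7.53 for all), and 5.97 in WT replicate 4, against 5.81 for 1431. The Nduf starts were thus bound at a height close to that of other bound starts. The remaining 34 Nduf peaks of WT replicate 3, which include those of genes with no start entry, had a median fold of 5.15.

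**Figure D4:**
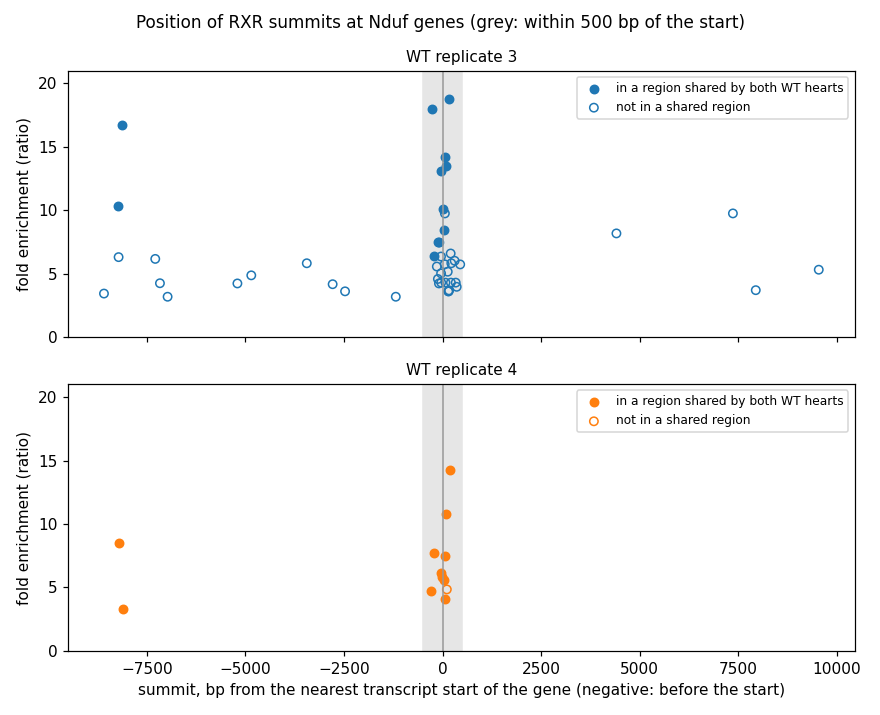
Distance of the RXR summit from the nearest annotated start of the Nduf gene (bp, negative before the start) against fold enrichment (ratio, the authors' value), for 47 peaks of WT replicate 3 (top) and 12 of WT replicate 4 (bottom) that lay within 10 kb of a known start. Filled points are regions shared by the WT hearts, open points are not, and the grey band covers 500 bp on each side. The summits gather in the band, with 30 peaks in WT replicate 3 and 10 in WT replicate 4, and the edKO hearts have none to plot.

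Many Nduf genes share their start with another gene on the opposite strand. The start of another gene lay within 1 kb on the opposite strand at 15 of 42 Nduf genes (35.7%), against 9.61% of all genes. Only genes with a promoter entry were used on both sides, so pairs with any other gene are missed. Among the genes with a shared region these were Ndufa1 with Rnf113a1, Ndufa4 with Phf14, Ndufa5 with Asb15 and Ndufb1 with Cpsf2. A summit between such a pair lies near both starts, and which gene it belongs to was not tested.

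At the edge of the 10 kb rule, the farthest member lay 8733 bp from Ndufa6, with a fold of 3.19 in WT replicate 3. The nearest peak outside lay 10061 bp from the core gene Ndufv2, with a fold of 18.03 for WT replicate 3 and 15.5 for WT replicate 4. That shared region was as high as the one at Ndufs4, but its summit was 91 bp from Washc1, a gene of endosomal sorting.

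Peaks were also looked up at marker genes of heart cell types. No marker had a peak in edKO replicate 3. In edKO replicate 4, Myh6 and Tnni3, the cardiac myosin heavy chain and troponin I genes, had a peak and no other marker did. Only 0.58% of all genes had a peak in that heart, so a count of 0 among the markers of other cell types is near the background. Shared WT regions lay near 4 of 6 cardiomyocyte markers (interval 22.3 to 95.7%), 2 of 5 endothelial (5.27 to 85.3%), 1 of 5 fibroblast or epicardial (0.505 to 71.6%) and 2 of 5 blood or macrophage markers (5.27 to 85.3%), against 15.2% of all genes. Apart from the cardiomyocyte list these intervals include the background, and lists this short do not separate the cell types. Peaks hold no expression, so the share of each cell type, the deletion of Rxra and Rxrb and the transcript level of the Nduf genes were not measured here.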

How the data were processed

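RXR ChIP-seq had given 4 immunoprecipitate and 4 input libraries, 8 in all. The submitters' processing notes name cutadapt, BWA, SAMtools, MACS3 and the build mm10 (GRCm38). Versions, settings and duplicate removal are not given by the sources used here. The labels name both paired-end and single-end reads. The authors deposited 1 peak list per heart, called on its immunoprecipitate and input, so hearts were not pooled. In the deposited lists, fold enrichment is the ratio of fragments at the summit to the local background, with 1 added to each. Fragments were taken as scaled by 0.992 in edKO replicate 3 and by 0.967 in WT replicate 4, and as unscaled in the other lists. The −log10 p and −log10 q values are the authors' significance within a list. The deposited score restates q and was not used. Positions are in bp on mm10, printed 1-based.

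Fragments and background were solved from fold and −log10 p (Poisson upper tail, tolerance 0.02), which succeeded for 100% of peaks in both edKO lists and WT replicate 4 and 99.96% in WT replicate 3. Library totals were not analysed here, so depth is known only through these fragments; whether each is an independent molecule was not tested, and intervals cover counting error only. Shared regions joined 1 peak per WT heart with at least 1 bp of overlap, with the summit of WT replicate 3. A summit counted for every gene with an end within 10 kb; 13 mitochondrial protein-coding genes were left out. Genes and promoters came from RefSeq tables of GRCm38.p6, the build of the peaks; 42 of 49 Nduf genes have a promoter entry. No genome sequence was used, so exons, introns and peak sequences are not given. Recovery of fragments, gene assignment and shared regions was tested on simulated peaks, of which 100% were recovered.

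Hearts were compared by a two-sided exact permutation test with a threshold of 0.05; the labels do not say that the shared numbers 3 and 4 mark a litter or a day, so hearts were unpaired, and 1 value per heart allows no check of pairing. Gene counts are descriptions with 95% Clopper-Pearson intervals, without a test. The members, gene lists, roles and motifs were chosen with earlier results of these data known. The naming rule gave each Nduf gene once (1 gene enters the counts but is not reported here), 12 genes in full and at most 6 promoters. The analysis used Python 3.11.15, numpy 2.4.6, pandas 2.3.3, scipy 1.17.1 and matplotlib 3.10.9.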

Additional observations from a re-analysis of the deposited data

How the results depend on the processing

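The edKO minus WT difference in Nduf peaks stayed negative under all 12 alternatives and passed the threshold in none. Both outcomes were largely fixed beforehand and are no sign of robustness. The exact p cannot fall below 0.333 with 2 hearts against 2. With no edKO peak to start from, only the distance of 50 kb could add any. It gave 0 and 2 peaks in edKO replicates 3 and 4, against 131 and 28 in WT replicates 3 and 4. With 1 heart left out the difference ran from -64 (without WT replicate 4) to -15 (without WT replicate 3). Leaving out an edKO heart kept the difference at -39.5. With a replicate block by heart number the difference was -39.5 with an exact sign-flip p of 0.5, the smallest possible, and the call did not change. As a share of each list, an alternative chosen after seeing the data, the difference was -0.327 percentage points.

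The 13 Nduf genes with a shared region became 8 (16.3%, against 11.5% of all genes) with a reciprocal overlap of 50%. They became 7 (14.3%, against 10.5% of all genes) when a region counted only for its nearest gene, and 23 (46.9%, against 31.9%) within 50 kb. With 1 WT heart left out the count ran from 13 (WT replicate 4 alone) to 36 (WT replicate 3 alone), so it is set by the shorter list. The share of all genes moved with it, from 15.8% to 42.4%. Under the other 6 alternatives, among them the window around transcript starts chosen after seeing the data, the count stayed between 9 and 13. The Nduf share ran from 20.4 to 26.5% there, and the share of all genes from 8.19 to 15.2%. The share of regions within 1 kb of a gene end ran from 54.7 to 80.0% over 9 alternatives, and the median fold from 5.57 to 10.1 over 8. A single peak list per heart, with 8 peaks in edKO replicate 3, limits every statement on edKO hearts.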

Other observations

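The gene table holds 5 Nduf pseudogenes, and none had an RXR peak within 10 kb in any of the 4 lists. Nduf peaks of the WT hearts were slightly wider than their lists, with a median of 362 bp against 321 bp in WT replicate 3 and 316 bp against 304 bp in WT replicate 4.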
